A study of Mus musculus with 2 samples.

Results

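Complement components and regulators were described through the cells of 2 mouse livers by single-cell RNA sequencing, for 9 genes: C1qa, C1qb, C1qc, C3, C4b, Cfb, Cfp, Cd55 and C3ar1. They were taken by gene symbol, 9 of the 34244 genes in the deposited lists, and all 9 were found. Both mice were C57/BL6 animals. The Control mouse received peanut oil by gavage and carries the treatment label "Untreated", and the PCB126 mouse received PCB126 at 20 µg/kg/day. Both were exposed for 5 weeks and fasted for 12 hours, and both carry an age label of postnatal day 21. The protocol calls the gavage a single one although the dose is per day. A dioxin-like compound of the polychlorinated biphenyl family, it is a ligand of the aryl hydrocarbon receptor (AHR). Enzymes were used to dissociate each liver, low-speed spins and a strainer to deplete hepatocytes, the main source of plasma complement, and a lysis step to remove red cells. There was 1 mouse and 1 library per group, so mouse, library and treatment cannot be told apart and no test between groups was possible.

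Complement is a set of plasma and membrane proteins that tag and lyse targets. The C1q complex, built from the chains encoded by C1qa, C1qb and C1qc, recognises antibody or damaged surfaces and starts the classical pathway. C4 is cleaved next in that pathway, and C3 is the component on which all routes converge. Factor B (Cfb) supplies the protease of the alternative C3 convertase, and properdin (Cfp) stabilises that convertase. CD55, or decay-accelerating factor, sits on the cell surface and dissociates convertases, and C3AR1 is the receptor for the C3a fragment. Hepatocytes make most plasma C3, C4 and factor B, whereas C1q is a textbook product of tissue macrophages and properdin of myeloid cells.

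All 9 genes are protein coding and lie on the minus strand in GENCODE M21 on GRCm38, the annotation used for positions here. C1qa (ENSMUSG00000036887, chr4:136895917-136898803), C1qc (ENSMUSG00000036896, chr4:136889804-136893065) and C1qb (ENSMUSG00000036905, chr4:136880129-136886187) sit side by side within 18675 bases. C4b (ENSMUSG00000073418, chr17:34728380-34743882) and Cfb (ENSMUSG00000090231, chr17:34856374-34862518) share a stretch of 134139 bases. C3 (ENSMUSG00000024164) lies at chr17:57203970-57228136 and Cd55 (ENSMUSG00000026399) at chr1:130439027-130462744. C3ar1 (ENSMUSG00000040552) lies at chr6:122847138-122856161 and Cfp (ENSMUSG00000001128) at chrX:20925454-20931555. RefSeq promoter sequence (GRCm38.p6) was at hand for 6 of the 9 genes. The upstream windows of Cd55, the endothelial member, and of C1qb, the C1q chain with the most UMIs, are shown because 1 AHR core motif and 1 PU.1 core motif fell in them. Each is 250 bases, 5′ to 3′ on the gene's strand and ends at the base before the RefSeq start, with the match in capitals. The Cd55 window is chr1:130462745-130462994 and the C1qb window is chr4:136886201-136886450, both on the minus strand.
Cd55: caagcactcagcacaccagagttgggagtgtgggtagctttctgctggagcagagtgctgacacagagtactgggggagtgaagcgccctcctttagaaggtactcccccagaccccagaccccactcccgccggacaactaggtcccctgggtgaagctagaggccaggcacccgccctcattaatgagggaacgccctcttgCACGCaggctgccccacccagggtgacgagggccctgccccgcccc
C1qb: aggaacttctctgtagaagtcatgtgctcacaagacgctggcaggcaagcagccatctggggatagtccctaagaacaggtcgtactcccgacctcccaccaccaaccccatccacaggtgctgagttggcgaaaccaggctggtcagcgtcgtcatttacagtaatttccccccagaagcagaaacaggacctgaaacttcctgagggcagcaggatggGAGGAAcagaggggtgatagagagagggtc
The capitals in Cd55 are the AHR response element core GCGTG read on the opposite strand, beginning at position -46 from the start. Of the 32851 RefSeq windows of this length 28.2% held GCGTG on either strand, and the members with it were Cd55 and Cfp, where it lay at -233. The capitals in C1qb are the PU.1 core GAGGAA at -30, which 23.3% of windows held on either strand and which C1qc also held, at -193. The interferon response element GAAANNGAA was in 7.13% of windows and in 0 of the 6 members' windows. A match describes the letters only.

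Cells were clustered with the complement genes left out, and clusters were named from marker genes (for example macrophage-like), as described under the processing. Levels are CPM, a gene's UMIs (molecules counted) scaled by all UMIs of that class in that library. The 1858 Control cells held 13754218 UMIs and the 1138 PCB126 cells 9871419, and the libraries shared 0 cell barcodes. Mitochondrial UMIs took a median of 7.58% per Control cell and 12.2% per PCB126 cell. Cell composition differed widely. LSEC-like cells, which resemble the liver sinusoidal endothelium, made up 8.61% of Control and 40.3% of PCB126 cells, and neutrophil-like cells 39.0% and 7.47%. Nonclassical monocyte-like (413) and classical monocyte-like (38) cells formed clusters of the Control library alone, and 0 of 1138 PCB126 cells lay in clusters with either name. When each cell was instead named from its own markers, 13 PCB126 and 48 Control cells were classical and 1 and 399 nonclassical monocyte-like. The share of a class in a dissociated, depleted suspension can also be set by cell loss, which was not tested. Intervals are exact 95% intervals and cover counting error only, not the spread between mice or between cells.

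**Figure D1:**
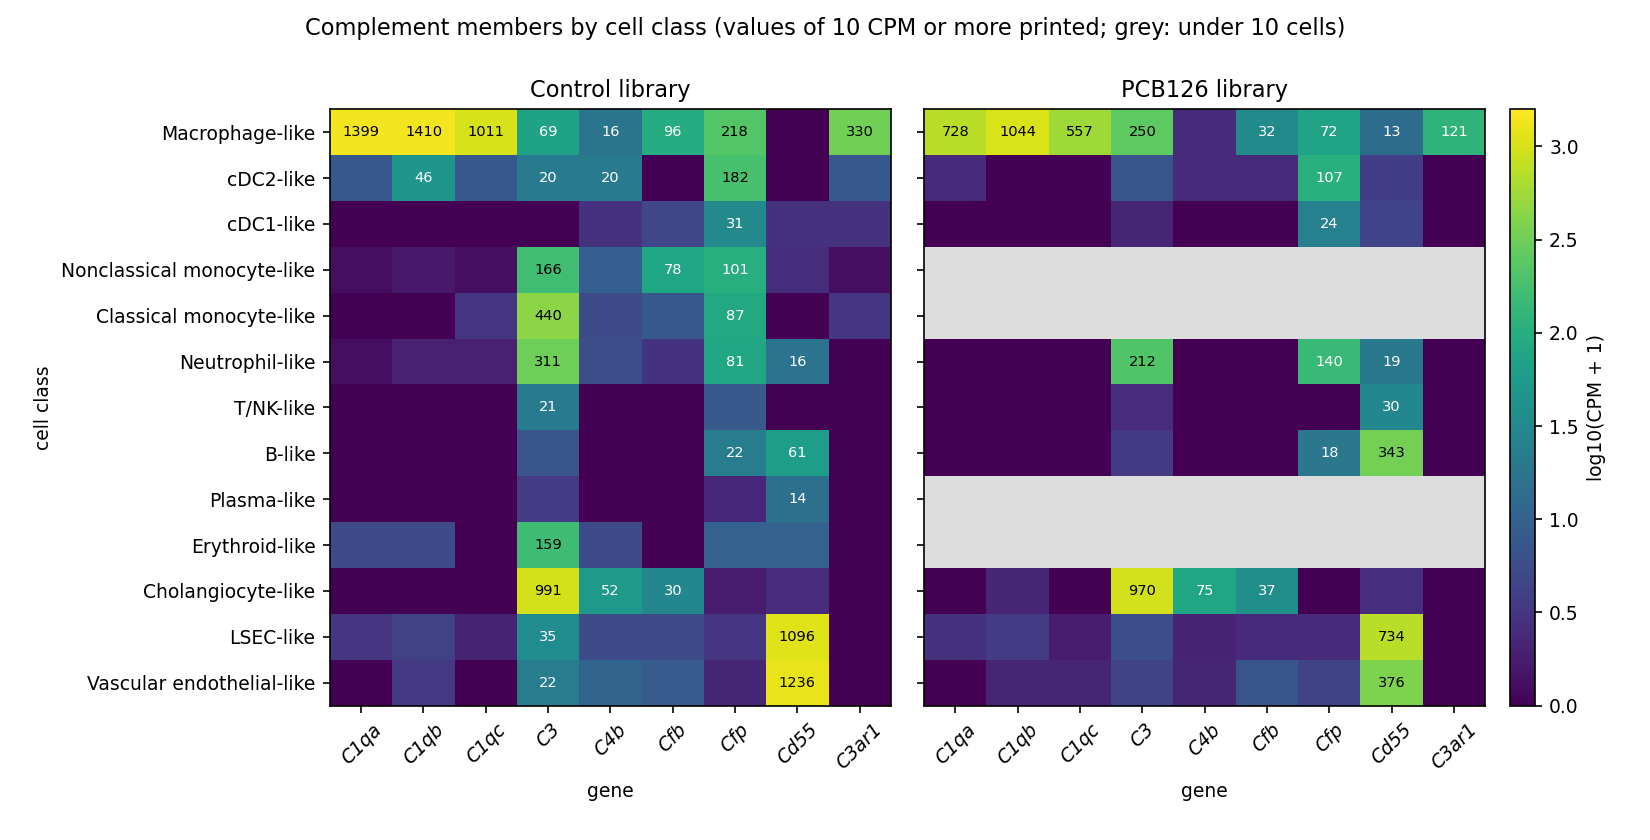
Level of each of the 9 genes (columns) in each named cell class (rows) in the Control and PCB126 libraries, as colour on a log10(CPM + 1) scale with values of 10 CPM or more printed. The C1q chains and C3ar1 are bright in the macrophage-like row, C3 in the cholangiocyte-like row and Cd55 in both endothelial rows. Grey rows had under 10 cells in that library.

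The C1q chains were macrophage-like transcripts in both livers. The macrophage-like cells were 15 of the Control cells (0.807%) and 65 of the PCB126 cells (5.71%). They held 97.0% of the C1qa, 91.1% of the C1qb and 95% of the C1qc UMIs of the Control cells. In the PCB126 library they held 98.7%, 98.6% and 99.3%. In cholangiocyte-like, T/NK-like, B-like and cDC1-like cells C1qa and C1qc stood at 0 UMIs in both libraries. All 8 macrophage markers, among them Csf1r and Trem2, were detected in the class in both libraries. The defining Kupffer cell markers were near absent: Clec4f, Marco and Cd163 had 0 UMIs in both libraries, and Timd4 had 1 and 2. The 7 Kupffer markers summed to 63.8 CPM in the Control and 12.5 CPM in the PCB126 macrophage-like cells, so these cells are described as macrophage-like and not as Kupffer cells.

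Within the macrophage-like cells each C1q chain was lower in the PCB126 library. C1qa stood at 1399 CPM in the Control cells (263 UMIs) and 728 CPM in the PCB126 cells (524 UMIs), a ratio of PCB126 over Control of 0.521 (0.448 to 0.606). C1qb stood at 1410 CPM and 1044 CPM, a ratio of 0.740 (0.643 to 0.855). C1qc stood at 1011 CPM and 557 CPM, a ratio of 0.551 (0.463 to 0.659). The intervals left out 1 for all 3 chains, but none of the chains reached a 2-fold difference. The direction over all cells was the opposite one. C1qb stood at 21.2 CPM of all Control UMIs and 77.2 CPM of all PCB126 UMIs, and the macrophage-like cells carried 1.37% of the UMIs in the first library and 7.29% in the second. In bulk liver RNA such a class shift and a change in RNA per cell could not be separated.

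C1q varied strongly from cell to cell inside the class. All 3 chains were seen together in 6 of 15 Control cells (40.0%, 16.3 to 67.7) and in 31 of 65 PCB126 cells (47.7%, 35.1 to 60.5). No chain was seen in 7 Control and 26 PCB126 cells. Per cell, the sum of the 3 chains ran from 0 over a median of 7 to 201 UMIs in the Control library, and from 0 over 11 to 280 UMIs in the PCB126 library. The ranges of the single cells overlapped. All 263 Control C1qa UMIs came from the 6 cells with all 3 chains, so the Control level rests on 6 cells. In cells with all 3 chains C1qa stood at 3083 CPM in the Control and 1570 CPM in the PCB126 library, and C1qb at 2919 and 2204 CPM. Markers of neighbouring types moved with this result. The nonclassical monocyte markers in the macrophage-like class, of which 7 of 7 and 6 of 7 were detected, summed to 729 CPM in the Control and 140 CPM in the PCB126 library, and the cDC2 markers, of which 4 of 6 and 6 of 6 were detected, to 58.5 and 955 CPM. Ccl17 alone made up 806 CPM of the PCB126 sum, while Cd209a stood there at 1.39 CPM, against 549 CPM in the cDC2-like cells of that library. Their part in the C1q difference was not tested.

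C3ar1, the C3a receptor, was found almost wholly in the same class, which held 93.9% of its 66 Control UMIs and 100% of its 87 PCB126 UMIs. It had 62 UMIs in the 15 Control cells (330 CPM) and 87 UMIs in the 65 PCB126 cells (121 CPM), a ratio of 0.367 (0.262 to 0.516). At least 1 C3ar1 UMI was seen in 5 Control cells (33.3%), all of which also had the 3 C1q chains. It was seen in 21 PCB126 cells (32.3%), of which 16 had the 3 chains. A single Control cell held 26 of the 62 UMIs. Without the top cell of each library the log2 ratio was -1.07 instead of -1.45. Neutrophil-like, LSEC-like and vascular endothelial-like cells had 0 C3ar1 UMIs in both libraries.

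C3 went the other way in the macrophage-like cells. It had 13 UMIs in the Control cells (69.2 CPM) and 180 UMIs in the PCB126 cells (250 CPM), a ratio of 3.62 (2.06 to 6.93). It was seen in 6 of 15 Control cells, with at most 4 UMIs in a cell, and in 33 of 65 PCB126 cells, with up to 43. The 5 cells with the most C3 held 92.3% of these UMIs in the Control and 53.9% in the PCB126 library. The median cell had 0 and 1. In the PCB126 library 84 of the 180 UMIs lay in cells with all 3 C1q chains and 96 in the other cells, so C3 lay in cells with and without the full C1q set. Free RNA, estimated as described under the processing, would give 29.2% of the Control and 0.522% of the PCB126 UMIs. Of 8 classical monocyte markers 6 were higher in the PCB126 macrophage-like cells, among them Ly6c2 (5.32 and 179 CPM) and Ccr2 (404 and 695 CPM). Vcan, with 0 and 1 UMI, is counted among the 6. The 2 lower ones were Fn1 (649 and 30.6 CPM) and Lyz2 (10538 and 6185 CPM). The sum of the 8 markers, led by Lyz2, was 11740 and 7456 CPM. Their part in the C3 difference was not tested.

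Of the 5 members measured in macrophage-like cells, meaning at least 100 UMIs over both libraries, C3 was the 1 at least 2-fold higher in the PCB126 library and C3ar1 the 1 at least 2-fold lower. Of all 1126 genes measured in this class 12.7% were at least 2-fold higher in the PCB126 library and 9.77% at least 2-fold higher in the Control library. The members' median log2 ratio was -0.86, against -0.02 over all measured genes.

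**Figure D2:**
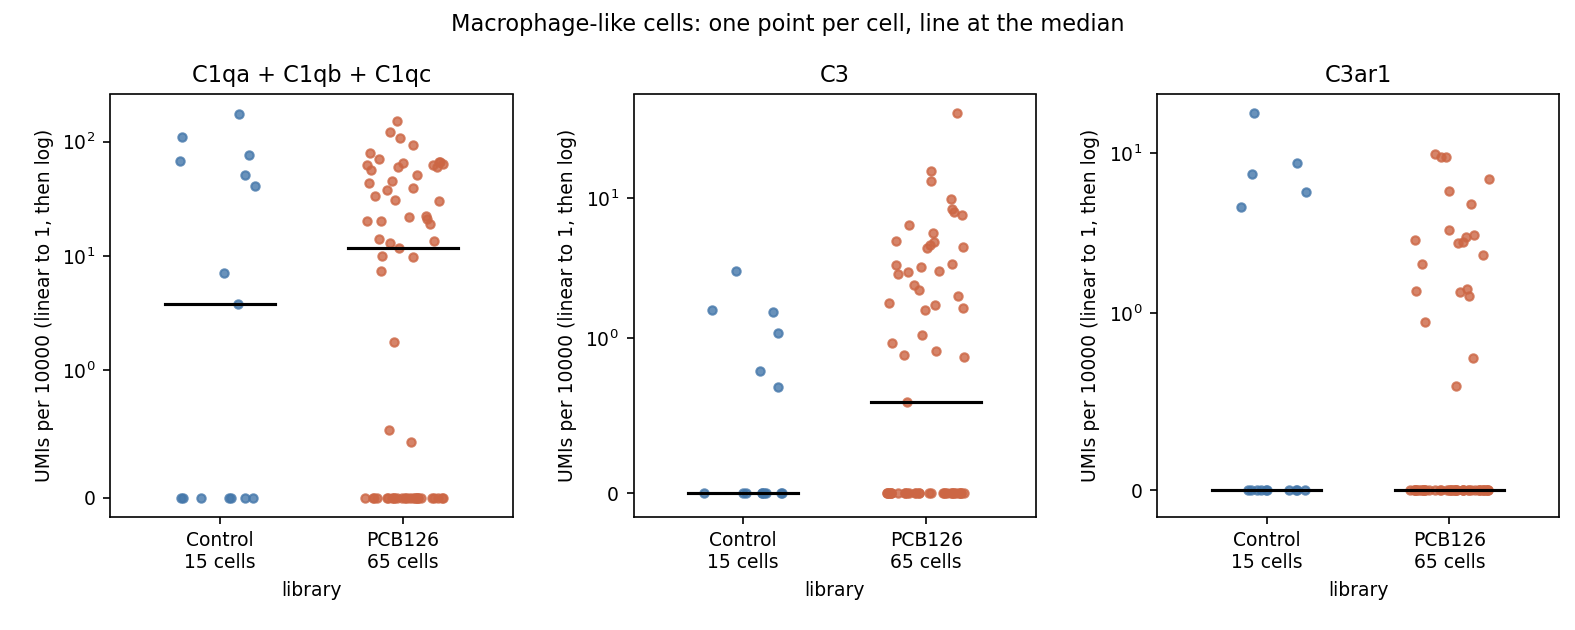
UMIs per 10000 UMIs of the cell for the sum of the 3 C1q chains, C3 and C3ar1 in each macrophage-like cell (points; 15 Control, 65 PCB126), on an axis that is linear to 1 and logarithmic above, with the median as a line. C1q-positive and C1q-negative cells are present in both libraries, and C3 reaches higher values in the PCB126 cells.

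C3 was led by cholangiocyte-like cells, the cells of the bile ducts, at levels that, with free RNA included, did not differ beyond counting error. It stood at 991 CPM in 71 Control cells (1269 UMIs, 938 to 1047 CPM) and at 970 CPM in 86 PCB126 cells (1631 UMIs, 923 to 1018 CPM). The ratio was 0.978 (0.908 to 1.05). Free RNA would give 47.1% of the Control and 9.65% of the PCB126 UMIs, and with it subtracted the log2 ratio moved from -0.03 to 1.11, past 2-fold. The estimate ran too high in this class, where it expected 26.3 Control and 77.3 PCB126 C1qa UMIs and 0 were seen. C3 was seen in 69 of the 71 and in 85 of the 86 cells. After thinning each cell to 1000 UMIs it was seen in 54.3% and 50% of the cells. In the PCB126 library these cells held 84.7% of all C3 UMIs, and in the Control library 40.0%, where neutrophil-like cells held a further 30.1% and nonclassical monocyte-like cells 16.5%. All 10 cholangiocyte markers were detected in both libraries. Hepatocyte markers summed to 5662 and 5081 CPM in this class, above every other class in both libraries, and what hepatocyte RNA adds to its C3, C4b and Cfb was not tested.

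Among myeloid cells C3 stood at 440 CPM in the classical monocyte-like cells of the Control library (197 UMIs, in 38 of 38 cells) and at 166 CPM in its nonclassical monocyte-like cells (523 UMIs). The PCB126 library had no clusters of these names to set beside them. Neutrophil-like cells had 953 C3 UMIs in the Control (311 CPM) and 80 in the PCB126 library (212 CPM), a ratio of 0.682 (0.536 to 0.858). The clusters of the class differed in C3 and were filled unequally by the libraries. Cluster 17 had 668 CPM in 77 Control and 650 CPM in 15 PCB126 cells. Cluster 30, which held 44 of the 85 PCB126 and 10 of the 724 Control neutrophil-like cells, had 127 CPM in the Control and 16.4 CPM in the PCB126 library. Both cluster 30 values rest on very few UMIs. The class value also turned to a higher PCB126 level, at log2 ratios of 0.25 and 0.37, when cells with up to 50% mitochondrial UMIs were kept or doublets were not removed. The cells in the class changed too: it then held 40 and 43 PCB126 cells, against 85. In LSEC-like cells C3 stood at 35.1 CPM in the Control and 4.80 CPM in the PCB126 library. Free RNA alone would give 92.2% and 64.7% of these UMIs, and the levels are read as background.

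C4b and Cfb were low in every class, and in cholangiocyte-like cells they stood beside C3. C4b had 67 UMIs in the Control (52.3 CPM) and 127 UMIs in the PCB126 cholangiocyte-like cells (75.5 CPM), a ratio of 1.44 (1.06 to 1.97). These cells held 46.5% of the Control and 95.5% of the PCB126 C4b UMIs. The Control barcodes with under 250 genes, which stand for free RNA, held 299 of that library's 481 C4b UMIs (62.2%), at 31.6 CPM, while those of the PCB126 library held 12 of 155 (7.74%), at 5.82 CPM. C4b expected from free RNA came to 168% of the Control and 27.0% of the PCB126 cholangiocyte-like UMIs. That estimate ran too high in this class, where it expected 26.3 Control and 77.3 PCB126 C1qa UMIs and 0 were seen. It therefore cannot decide how much of the Control C4b is free RNA, and the 2 were not separated. The near-identical gene C4a had 1 UMI in each library, and reads that fit both genes may have been split or lost in the authors' counting.

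Cfb stood at 29.7 CPM in the Control (38 UMIs) and 36.9 CPM in the PCB126 cholangiocyte-like cells (62 UMIs), a ratio of 1.24 (0.816 to 1.91). The counts allow either direction, and free RNA would give 65.3% and 27.7% of these UMIs. In the Control library 74.2% of the Cfb UMIs came from nonclassical monocyte-like cells (245 UMIs, 77.7 CPM, seen in 144 of 413 cells), a class with no cluster in the PCB126 library. Macrophage-like cells had 18 Cfb UMIs in the Control (95.8 CPM) and 23 in the PCB126 library (32.0 CPM), too few for the 100-UMI limit. Of the 3 members measured in cholangiocyte-like cells, 0 passed 2-fold. With free RNA subtracted all 3 did, at log2 ratios of 1.11 for C3, 7.51 for C4b and 1.70 for Cfb. The estimate subtracted ran too high in this class. Without that subtraction, 0.862% of 4871 genes there were at least 2-fold higher in the PCB126 library and 0.801% at least 2-fold higher in the Control library.

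Properdin, Cfp, was spread over myeloid and dendritic cells. In the Control library nonclassical monocyte-like cells held 40.7% of its 781 UMIs, at 101 CPM, and neutrophil-like cells 32.0%. In the PCB126 library cDC2-like cells, a class of conventional dendritic cells, held 30.6% of its 242 UMIs, neutrophil-like cells 21.9% and macrophage-like cells 21.5%. Free RNA added little, with 28 Cfp UMIs in the low-count barcodes of the Control and 0 in those of the PCB126 library.

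Per class, Cfp was higher in PCB126 neutrophil-like cells and lower in PCB126 cDC2-like cells. It stood at 81.5 CPM (250 UMIs) and 140 CPM (53 UMIs) in neutrophil-like cells, a ratio of 1.72 (1.26 to 2.33). Of those 53 UMIs 34 came from cluster 30, at 185 CPM. With up to 50% mitochondrial UMIs kept, the log2 ratio went from 0.80 to -0.03, in a class of 40 instead of 85 PCB126 cells. After thinning, 7.94% of Control and 8.24% of PCB126 neutrophil-like cells had a Cfp UMI, shares that did not differ beyond counting error. In cDC2-like cells it stood at 182 CPM (28 UMIs in 18 cells) and 107 CPM (74 UMIs in 54 cells), a ratio of 0.588 (0.376 to 0.944). Macrophage-like cells had 218 CPM (41 UMIs) and 72.3 CPM (52 UMIs), and cDC1-like cells 30.7 and 23.97 CPM, both under 100 UMIs in all. Neither of the 2 members measured in neutrophil-like cells passed 2-fold, where 5.17% of genes were higher and 4.86% lower in the PCB126 library by that much. Cfp was the 1 member measured in cDC2-like cells and did not pass 2-fold, against 9.58% of genes higher in the PCB126 and 5.4% higher in the Control library.

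Cd55 was the endothelial member, and it was lower in the PCB126 library in both endothelial classes. In vascular endothelial-like cells, named from Vwf, Cd34 and 8 further markers, it stood at 1236 CPM in 75 Control cells (1024 UMIs, 1162 to 1314 CPM) and 376 CPM in 92 PCB126 cells (324 UMIs, 337 to 420 CPM). The ratio was 0.305 (0.268 to 0.345), a log2 ratio of -1.71. After thinning, a Cd55 UMI was seen in 62.7% of the Control and 32.6% of the PCB126 cells. Cd55 was the 1 member measured in this class and was past 2-fold, where 2.33% of 2699 genes were at least 2-fold higher in the Control library and 1% at least 2-fold higher in the PCB126 library. All 10 vascular markers were detected in both libraries, summing to 8075 and 7197 CPM, but they did not move as one. Rspo3 (2918 and 3701 CPM) was among 6 that were higher in the PCB126 library, and Vwf (2838 and 1279 CPM), Fbln5 (228 and 80.2 CPM), Cd34 and Fbln2 were lower. Their part in the Cd55 difference was not tested. Cholangiocyte-like cells had 2 and 3 Cd55 UMIs.

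Cd55 was lower in the PCB126 cells of both vascular clusters and of a neighbouring one. Cluster 6, in which cells of both libraries were nearly equal in number, had 939 CPM in 32 Control and 235 CPM in 35 PCB126 cells, a ratio of 0.251 (0.189 to 0.328). Cluster 10 had 1396 CPM in 43 Control and 448 CPM in 57 PCB126 cells, a ratio of 0.321 (0.277 to 0.370). Cluster 11, unnamed because LSEC markers fitted it best while its top genes held a vascular one, had 1454 CPM in 38 Control and 483 CPM in 40 PCB126 cells, a ratio of 0.332 (0.280 to 0.393). In these 3 clusters the Control and PCB126 intervals did not overlap, and the libraries gave similar numbers of cells. After thinning, a Cd55 UMI was seen in 53.1% of Control and 17.1% of PCB126 cells of cluster 6, in 69.8% and 42.1% of cluster 10, and in 71.1% and 30% of cluster 11.

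LSEC-like cells carried Cd55 at 1096 CPM in 160 Control cells (998 UMIs) and 734 CPM in 459 PCB126 cells (1985 UMIs), a ratio of 0.669 (0.620 to 0.723). After thinning it was seen in 59.4% and 52.1% of the cells. Cd55 was the 1 member measured here and did not pass 2-fold. Of 4724 genes 3.85% were at least 2-fold higher in the PCB126 and 1.59% at least 2-fold higher in the Control library. The LSEC-like clusters were filled unequally by the libraries. Cluster 7 had 973 CPM in 12 Control and 820 CPM in 195 PCB126 cells, a ratio of 0.843 (0.639 to 1.13). Cluster 29 had 1419 CPM in 8 Control and 680 CPM in 193 PCB126 cells, a ratio of 0.479 (0.374 to 0.623). Clusters 5 and 24, mostly Control cells, had ratios of 0.450 (0.295 to 0.661) and 0.322 (0.179 to 0.536), with 8 and 7 PCB126 cells. With clusters weighed equally the LSEC-like log2 ratio was -1.01 instead of -0.58, and with at most 10% mitochondrial UMIs it was -1.10.

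**Figure D3:**
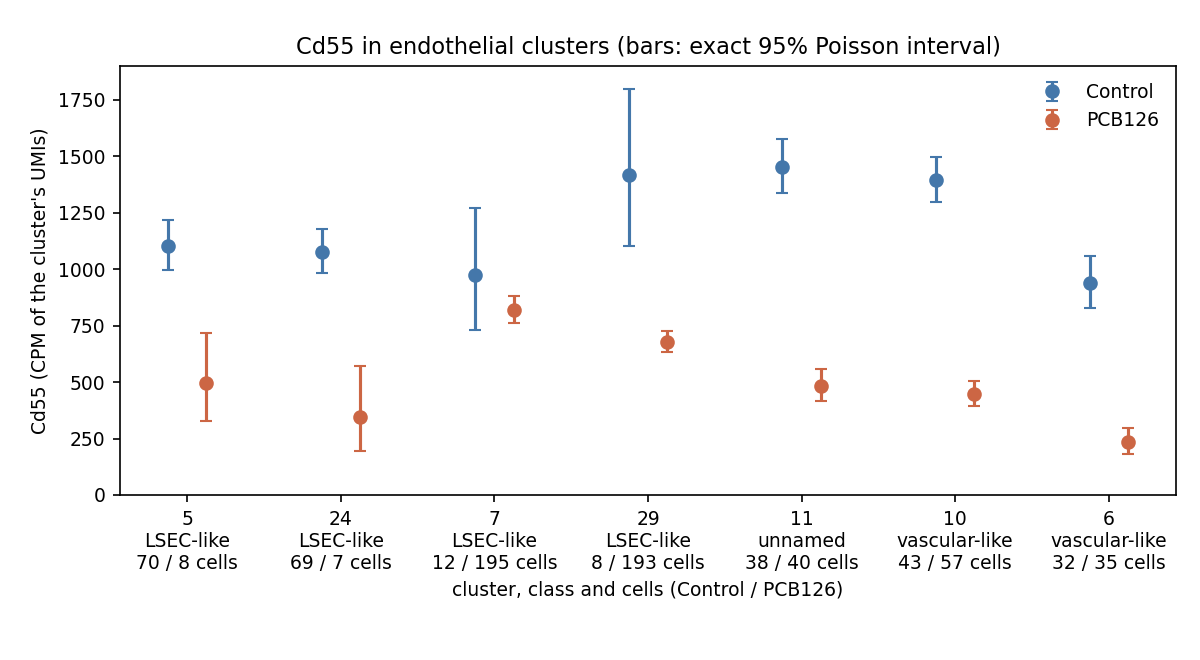
Cd55 level in CPM in 7 endothelial clusters with cells of both libraries (1 LSEC-like cluster with a single Control cell is left out), with exact 95% Poisson intervals as bars. In clusters 6, 10 and 11 the PCB126 points lie between 235 and 483 CPM and the Control points between 939 and 1454 CPM, while in cluster 7 the intervals overlap.

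B-like cells had more Cd55 in the PCB126 library, but the size depended on which cells were in the class. The class stood at 61.3 CPM in 36 Control cells (51 UMIs) and 343 CPM in 57 PCB126 cells (137 UMIs), a ratio of 5.6 (4.03 to 7.88). Cluster 23, led by immunoglobulin genes and holding 17 Control and 2 PCB126 cells with many UMIs, had 20.4 CPM in the Control library. In cluster 9 alone Cd55 stood at 252 CPM in 19 Control and 408 CPM in 55 PCB126 cells, a ratio of 1.62 (1.12 to 2.39), which does not reach 2-fold. Cd55 was the 1 member measured in B-like cells, where 12.7% of 1419 genes were at least 2-fold higher in the PCB126 and 20.2% at least 2-fold higher in the Control library. T/NK-like cells had 0 Cd55 UMIs in 18 Control cells, where 3 UMIs would be 20.5 CPM, and 19 UMIs in 70 PCB126 cells (30.0 CPM). The paralogue Cd55b had 0 and 2 UMIs over all cells, and reads shared by the copies may be split between them.

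**Figure D4:**
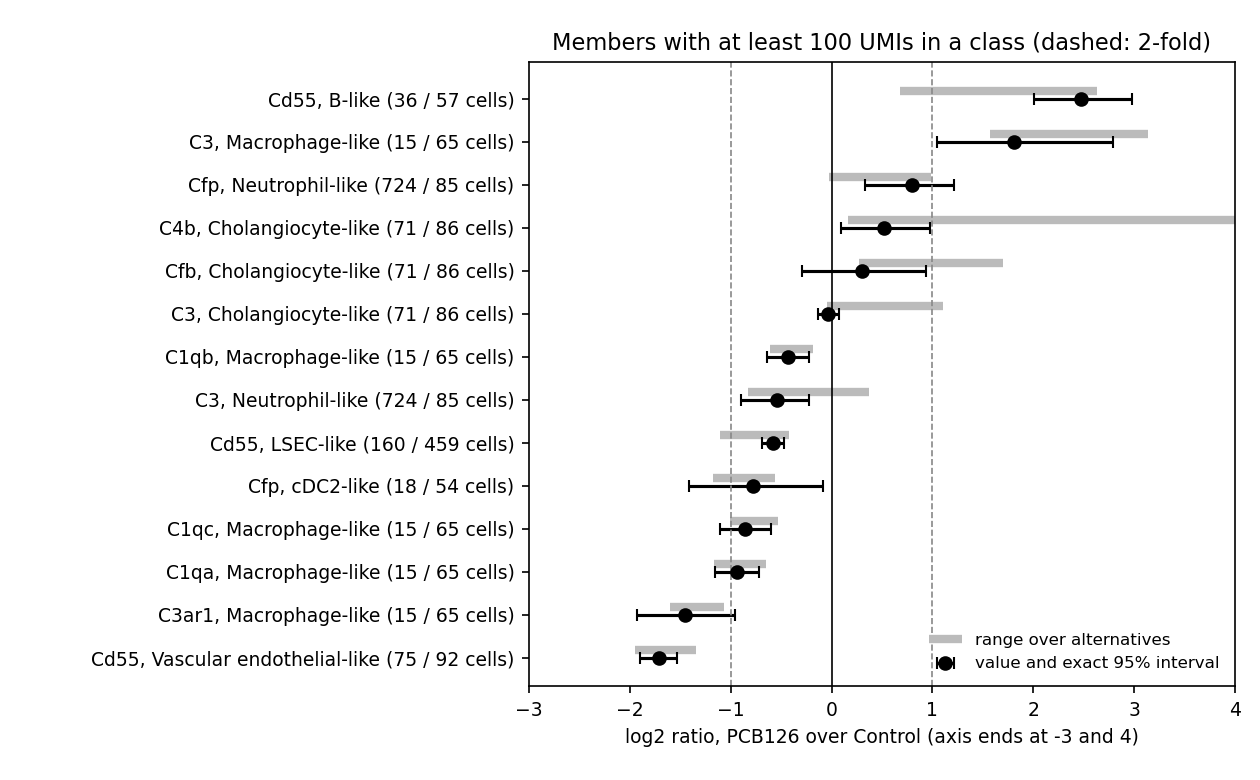
Log2 ratio of PCB126 over Control (points) with its exact 95% counting interval (black bars) for the 14 pairs of member and class with at least 100 UMIs, and the range over the alternative settings (grey bars). Cd55 in vascular endothelial-like cells and C3ar1 in macrophage-like cells lie below the 2-fold line, and C3 in macrophage-like and Cd55 in B-like cells above it; the grey bar of C4b runs past the axis, to 7.51.

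In all, 14 pairs of a member and a class had enough UMIs, and 4 were past 2-fold: Cd55 in vascular endothelial-like and B-like cells, and C3 and C3ar1 in macrophage-like cells. A list of 46 other complement genes was set beside them. Of the 11 measured in cholangiocyte-like cells, 0 passed 2-fold in either direction, with a median log2 ratio of 0.09 against 0.09 over all measured genes. Of all measured genes 0.862% were at least 2-fold higher in the PCB126 and 0.801% in the Control library there. Clusterin (Clu), an inhibitor of the terminal complex, was there at 12283 CPM in the Control and 8608 CPM in the PCB126 library. In LSEC-like cells 0 of 9 and in vascular endothelial-like cells 0 of 7 passed. Of all measured genes 3.85% and 1% were at least 2-fold higher in the PCB126 library in these classes, and 1.59% and 2.33% in the Control library. All 7 vascular values were below 0, with a median log2 ratio of -0.31 against -0.06 over all measured genes. Cd59a, a surface inhibitor that blocks the terminal complex, stood at 837 CPM in the Control and 587 CPM in the PCB126 vascular endothelial-like cells, a log2 ratio of -0.51 beside the -1.71 of Cd55.

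In macrophage-like cells 3 of 6 other complement genes were at least 2-fold lower in the PCB126 library and 0 higher, against 9.77% and 12.7% of all measured genes. The 3 lower ones were the chains of complement receptor 3, Itgam (346 and 150 CPM) and Itgb2 (575 and 207 CPM), and the scavenger receptor Lrp1 (564 and 179 CPM). In neutrophil-like cells 1 of 7 passed, ficolin Fcnb, with 160 UMIs in the Control (52.2 CPM) and 2 in the PCB126 library (5.30 CPM). Of all measured genes there 4.86% were at least 2-fold higher in the Control and 5.17% in the PCB126 library. In B-like cells both measured genes, C1qbp and Calr, were past 2-fold, at log2 ratios of -1.39 and -1.22. Of all measured genes there 20.2% were at least 2-fold higher in the Control and 12.7% in the PCB126 library. The class includes the immunoglobulin-led cluster 23, with 17 Control and 2 PCB126 cells, whose part in these values was not tested. Of the 4 genes in each dendritic class and 2 in T/NK-like cells, 0 passed. In cDC2-like cells 9.58% of all measured genes were at least 2-fold higher in the PCB126 and 5.4% in the Control library. This share was not counted for cDC1-like and T/NK-like cells. Cfd and C7 had 0 UMIs in all cells.

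Genes with the pattern most like each member were sought by Pearson correlation of log2(CPM + 10) over 19 profiles of a class in a library with at least 20 cells, among 10942 genes. The profiles of a library share its depth and free RNA, and the values are descriptions. C1qa, C1qb, C1qc and C3ar1 were all most like Mmp12 (r = 0.995, 0.994, 0.998 and 0.995), with Ccl22, Pf4 and Ms4a7 next. Only 1 of the profiles, that of the PCB126 library, was of macrophage-like cells, since the Control class had under 20. Cd55 was most like Nid1 (0.959), Gm15675 (0.953) and S1pr1 (0.9498). C3 was most like Chka (0.876), Chp1 and Fam20c. C4b was most like Cp (0.967), Epb41l1 and Ahsg. Cfb was most like Azin2 (0.904), Itgb5 and Nr1h3, and Cfp most like Csf2rb (0.925), I830077J02Rik and Pira2.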

How the data were processed

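Single-cell RNA was measured with a droplet 3′ kit in 2 livers, 1 mouse per group. The authors deposited matrices of unnormalized UMI counts, 1 per library. The deposited gene and barcode lists hold other content, namely identifiers. Cell Ranger 6.0.0 wrote them, per the file headers, whereas Seurat 4.0.1 and Cell Ranger 6.1.1 are named in the submitters' processing notes. Build and annotation: not given in the sources used here. Among 34244 gene IDs, 34049 occur in GENCODE M21. The symbol Itgam stands on more than 1 ID, and the first was taken.

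There were 8550 Control barcodes with 24134912 UMIs, and 4307 PCB126 barcodes with 16269562. Cells had at least 500 UMIs, at least 250 genes and at most 20% mitochondrial UMIs. Scrublet in scanpy then marked doublets at 0.8% per 1000 barcodes, and 28 and 11 were left out. The median was 5259 UMIs per Control cell and 6567 per PCB126 cell. Clustering used 2000 variable genes, 30 components, 15 neighbours and Leiden resolution 2, without complement, response, mitochondrial, ribosomal and erythroid genes. Resolution 1 had been planned, but there macrophage and cDC2 markers shared a cluster. A cluster took the name of the type with the largest fraction of its markers detected (log2 fold of at least 1, UMI in at least 10% of cells), with at least 3. It stayed unnamed where another type had more markers among its top 10 genes, or where a library with at least 10 of its cells had under 3 of the name's markers in 10% of them. The last rule was added after the data were seen and left 175 Control and 114 PCB126 cells unnamed in all. A minimum of 20 cells per library and class had been set. After the data were seen, macrophage-like (15 Control cells), cDC2-like (18) and T/NK-like (18) cells were compared too.

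UMIs were summed per class and library. No test was possible with 1 library per group. Intervals are exact 95% ones (Poisson for a level, conditional binomial for a ratio, Clopper-Pearson for a share). Log2 ratios had 0.5 added to each count, and a count of 0 allows up to 3. A member was measured in a class with at least 100 UMIs over both libraries. Free RNA was estimated from the barcodes under 250 genes of the same library, scaled so that it gave every hepatocyte-marker UMI of the class. This is an upper estimate where cells of the class make such RNA. In cholangiocyte-like cells it expected C1qa UMIs where 0 were seen. The named other genes were those measured and past 2-fold, those leading their role group, and the 3 most alike in pattern. Values of some genes that are not members are not reported here. The ratio script was tested on simulated data. Members and lists were chosen with earlier results of these data known. Python 3.11.15, scanpy 1.11.5, leidenalg 0.10.2, scipy 1.17.1 and numpy 2.4.6 were used.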

Additional observations from a re-analysis of the deposited data

Results flagged for a closer look

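Some members had ratios on opposite sides of 1 in different classes, each with a counting interval that left out 1. With 1 library per group the difference between classes was not tested. The log2 ratio of C3 was 1.80 in macrophage-like and -0.54 in neutrophil-like cells, but the latter turned to 0.25 with up to 50% mitochondrial UMIs kept and to 0.37 without doublet removal, where the opposition is gone. That of Cfp was 0.80 in neutrophil-like and -0.78 in cDC2-like cells, and the former turned to -0.03 with up to 50% mitochondrial UMIs kept. That of Cd55 was 2.48 in B-like, -0.58 in LSEC-like and -1.71 in vascular endothelial-like cells. With up to 50% mitochondrial UMIs kept or without doublet removal, the neutrophil-like class held 40 and 43 PCB126 cells, against 85 in the main setting.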

How the results depend on the processing

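The number of pairs of member and class past 2-fold was 4 of 14. In the classes of those 4, 1% to 12.7% of all measured genes were at least 2-fold higher in the PCB126 library. The share at least 2-fold higher in the Control library was 2.33% to 20.2%. These shares are given for the main setting only. The number of pairs was 2 of 8 with at most 10% mitochondrial UMIs and with a gate on each cell's own markers. It was 2 of 9 at Leiden resolutions 0.5 and 1 and with complement genes kept in the clustering. With clusters weighed equally it was 2 of 4. At both coarser resolutions the 2 were Cd55 in vascular endothelial-like and Cfp in cDC2-like cells. The number was 7 of 14 with free RNA subtracted and 8 of 14 at a fold of 1.5. It was 8 of 21 with at least 20 UMIs and 1 of 8 with at least 200 UMIs. These settings measured 4 to 21 pairs. Between 3 and 6 pairs passed with up to 50% mitochondrial UMIs, no doublet removal, mitochondrial genes out of the total, every cell weighed equally, thinning, the top cell left out, and a fold of 3. Equal cluster weights and leaving out the top cell were chosen after seeing the data. Macrophage-like cells could not be compared in 5 settings: with at most 10% mitochondrial UMIs (7 Control cells), complement genes kept (6), the own-marker gate (6) and both coarser resolutions.

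Cd55 in vascular endothelial-like cells stayed past 2-fold in 12 of 12 alternatives, at log2 ratios of -1.96 to -1.35. With at most 10% mitochondrial UMIs no cluster took that name, so this setting is not among them. In the main setting mitochondrial UMIs took a median of 6.57% per Control and 10.9% per PCB126 cell of the class. In LSEC-like cells the Cd55 log2 ratio was below 0 in 13 of 13 (-1.10 to -0.42). In B-like cells it ranged from 0.68 to 2.64 and was past 2-fold in 9 of 12. In macrophage-like cells C3 ranged from 1.57 to 3.14 and C3ar1 from -1.60 to -1.07. C1qa ranged from -1.16 to -0.65, C1qb from -0.61 to -0.18 and C1qc from -1.01 to -0.53, in 7 alternatives. Free RNA subtraction, with an estimate that ran too high there, raised the cholangiocyte-like log2 ratios to 1.11 for C3, 7.51 for C4b and 1.70 for Cfb. Neutrophil-like C3 ranged from -0.83 to 0.37 and Cfp from -0.03 to 0.99, and cDC2-like Cfp from -1.18 to -0.56. The cause of these shifts was not tested. No paired analysis was possible because each group had 1 library and the labels carry no replicate numbers. The small Control classes limit the macrophage-like, cDC2-like and T/NK-like values.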

Other observations

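The barcodes with under 250 genes, left out of all classes, differed between the libraries in complement RNA. C3 made up 168 CPM of the Control and 26.7 CPM of the PCB126 UMIs in them, and C4b 31.6 and 5.82 CPM. Cd55 went the other way, at 14.6 and 47.5 CPM (138 and 98 UMIs), as did C1qb, at 4.23 and 10.7 CPM (only 40 and 22 UMIs). Albumin (Alb), the hepatocyte marker, stood there at 1077 and 699.8 CPM, and haemoglobin took 54.6% and 21.1% of their UMIs. Haemoglobin is part of the total that sets these levels, and its part in the differences was not tested.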
